A study of Homo sapiens with 6 samples.

Results

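The human chromosome band 19q13.4 carries one of the densest groups of zinc finger genes in the genome, and 93 of its genes with names starting in ZNF were measured here, of 19040 genes in all. The members were the genes whose deposited probe set carried a single symbol starting with ZNF and a deposited cytoband starting with chr19q13.4. Each was represented by the probe set with the highest mean log2 intensity over the 6 arrays. The deposited bands placed 24 of them in 19q13.41, 16 in 19q13.42, 39 in 19q13.43 and 14 in 19q13.4 with no finer band. Current RefSeq names 2 of the deposited symbols as pseudogenes, ZNF321P and ZNF542P, and the name ZNF137P marks another one.

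Most of these genes encode C2H2 zinc finger proteins, in which each finger is held together by a zinc ion and reads a few bases of DNA. Many also carry a KRAB domain, which recruits the corepressor TRIM28 (KAP1) and through it the histone methyltransferase SETDB1, HP1 proteins and the NuRD complex, and the cluster grew by tandem duplication in the primate lineage. Several KRAB zinc finger proteins bind and silence retroelements. The members named ZNF524, ZNF579, ZNF580, ZNF581, ZNF628, ZNF784 and ZNF787 lack a KRAB domain.

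Total RNA came from AN3-CA, an established human endometrial cancer line, on Affymetrix arrays. All cultures were kept for 18 h in serum-free medium, and 2 cultures called biological replicates formed each group. The labels give 18 h of treatment and 24 h of culture for every sample. The DMSO group received vehicle and no growth factor, the aFGF group received DMSO with acidic fibroblast growth factor at 10 ng/mL, and the AZD4547 group received 300 nM AZD4547, an inhibitor of the FGF receptor kinases, with the same dose of aFGF. The labels give 0.5% DMSO as vehicle for the DMSO and aFGF groups and state no vehicle for the AZD4547 group. All groups share one cell line, and AZD4547 without aFGF was not among the groups. The aFGF arrays also served as the reference for AZD4547, and any 2 of the 3 comparisons share a group of arrays.

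Replicates of a group correlated across genes at r = 0.9973 in DMSO, 0.9978 with aFGF and 0.9978 with AZD4547. EGR1, an immediate early gene downstream of FGF receptors, read 6.34 and 6.34 on the log2 scale in DMSO, 9.48 and 9.46 with aFGF, and 3.68 and 3.82 with AZD4547. Of 6 genes known as outputs of FGF receptors, 3 rose with aFGF (EGR1, PHLDA1 and SPRY4), while DUSP6 (log2 fold change 0.06), ETV4 (-0.11) and ETV5 (-0.10) were not called. With AZD4547 over aFGF 5 of the 6 fell and ETV5 rose, by 0.16. Of 13 endometrial epithelial markers, 6 lay above the median of every array, among them KRT18, ESR1, FGFR2, HOXA10 and HOXA11. The epithelial genes EPCAM, CDH1, KRT8, KRT19, PAX8, SOX17 and PGR did not. Of 17 markers of fibroblasts, muscle, endothelium and leukocytes, 2 did so, COL1A2 and DES. COL1A2, at a mean log2 intensity of 9.70, made up most of the summed intensity of the 17, with DES next at 3.28. COL1A2 alone among them was called, with log2 fold changes of 0.19 with aFGF and 0.23 for AZD4547 over DMSO. The summed intensity of these 17 markers ran from 772.2 to 871.7 in DMSO, from 927.3 to 932.9 with aFGF and from 940.1 to 962.7 with AZD4547. That of the 13 endometrial markers was 519.8 to 526.6 in DMSO, 323.3 to 346.3 with aFGF and 628.6 to 646.1 with AZD4547. Of these 13, FGFR2 had log2 fold changes of -1.18 with aFGF and 1.63 with AZD4547 over aFGF. KRT18 moved the other way, by 0.44 and -0.53, both called. EMX2 (0.53) and HOXA10 (0.45) were also called higher with AZD4547 over aFGF. The other endometrial markers were not called in these comparisons. The endometrial sum was lowest on the aFGF arrays. The members called lower with aFGF were picked by low readings on those same arrays, so a shared low there follows from the choice. The part of either marker sum in the results was not tested. In RNA from whole cultures, fewer cells that express a gene and less RNA of it per cell cannot be told apart.

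The signals of the members were low to moderate. Their mean log2 intensities ran from 0.33 to 5.83 with a median of 3.58, set beside a median of 3.42 over all genes. Of the 93, 52 lay above the median of every array and 30 lay below the median of every array. The 5 brightest were ZNF329 (5.83), ZNF579 (5.54), ZNF776 (5.50), ZNF581 (5.39) and ZNF766 (5.36). Brightness also depends on the probes, so these values order signals and not transcript numbers. The 5 dimmest, picked here by their values, were ZNF154 (0.33), ZNF667 (0.33), ZNF135 (0.42), ZNF534 (0.43) and ZNF460 (0.47), and none of them was called in any comparison. Replicates of members differed by a median of 0.100 in DMSO, 0.090 with aFGF and 0.083 with AZD4547, on the log2 scale, and by at most 0.70, 0.59 and 0.41.

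The first comparison asked which members aFGF altered. A call meant that the limma p, adjusted by Benjamini-Hochberg over all genes, was under 0.05. No member rose and 5 fell with aFGF, ZNF480, ZNF836, ZNF580, ZNF415 and ZNF329. These made up 5.38% of the members, where 15.6% of all genes were called, 5.92% as higher and 9.72% as lower. At an unadjusted p under 0.05, 3 members were higher and 14 lower, and 26.5% of all genes passed that level in either direction. The median log2 fold change was -0.04 for the members and -0.01 for all genes. Of the members, 34 lay above and 59 below 0, and of all 19040 genes 9135 lay above and 9898 below. The 2 groups of arrays did not overlap for 49 members, a state that 50.5% of all genes shared.

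ZNF480, a KRAB zinc finger gene of 19q13.41, fell furthest. It read 4.99 and 4.94 on the log2 scale in DMSO, 3.25 and 3.05 with aFGF, and 4.92 and 4.94 with AZD4547. Both aFGF arrays lay far below the other 4, and the AZD4547 arrays lay at the level of the DMSO arrays. The means were 4.96 ± 0.03 in DMSO, 3.15 ± 0.14 with aFGF and 4.93 ± 0.01 with AZD4547 (SD, n = 2). The log2 fold change with aFGF was -1.82 (SE 0.09, limma adjusted p = 2.9e-07), a 3.52-fold lower intensity. Among falls with aFGF over all genes it ranked 2 by size. In the authors' deposited table the ratio of aFGF over DMSO for this probe set was 0.284 with p = 0.00222, from a test the sources do not name.

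ZNF836, its KRAB zinc finger neighbour in the same band with 1 member between them, read 3.14 and 3.0 in DMSO, 2.39 and 2.45 with aFGF, and 3.13 and 3.02 with AZD4547. Again the aFGF arrays alone were low. The log2 fold change with aFGF was -0.65 (SE 0.12, limma adjusted p = 0.0027). ZNF766, which lies between both, did not pass the test, at -0.05, and neither did ZNF610 (-0.06) or ZNF880 (-0.02) on the other side of ZNF480.

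ZNF580, a short zinc finger protein without KRAB, read 4.88 and 4.84 in DMSO, 4.45 and 4.42 with aFGF, and 4.79 and 4.88 with AZD4547. ZNF415 read 4.80 and 4.72, then 4.48 and 4.43, then 4.74 and 4.80 in the same order. ZNF329 read 5.87 and 5.83, then 5.57 and 5.62, then 6.07 and 6.03. For each of the 3 genes the aFGF arrays were lowest and did not overlap either other group. The log2 fold changes with aFGF were -0.42 for ZNF580, -0.31 for ZNF415 and -0.26 for ZNF329, with limma adjusted p-values of 0.0038, 0.024 and 0.019. The call was lost for ZNF580 without aFGF replicate 2, for ZNF329 without either aFGF array, and for ZNF415 without either aFGF array or without DMSO replicate 1. With no intensity trend in the fit the calls of ZNF329 and ZNF415 were also lost.

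**Figure D1:**
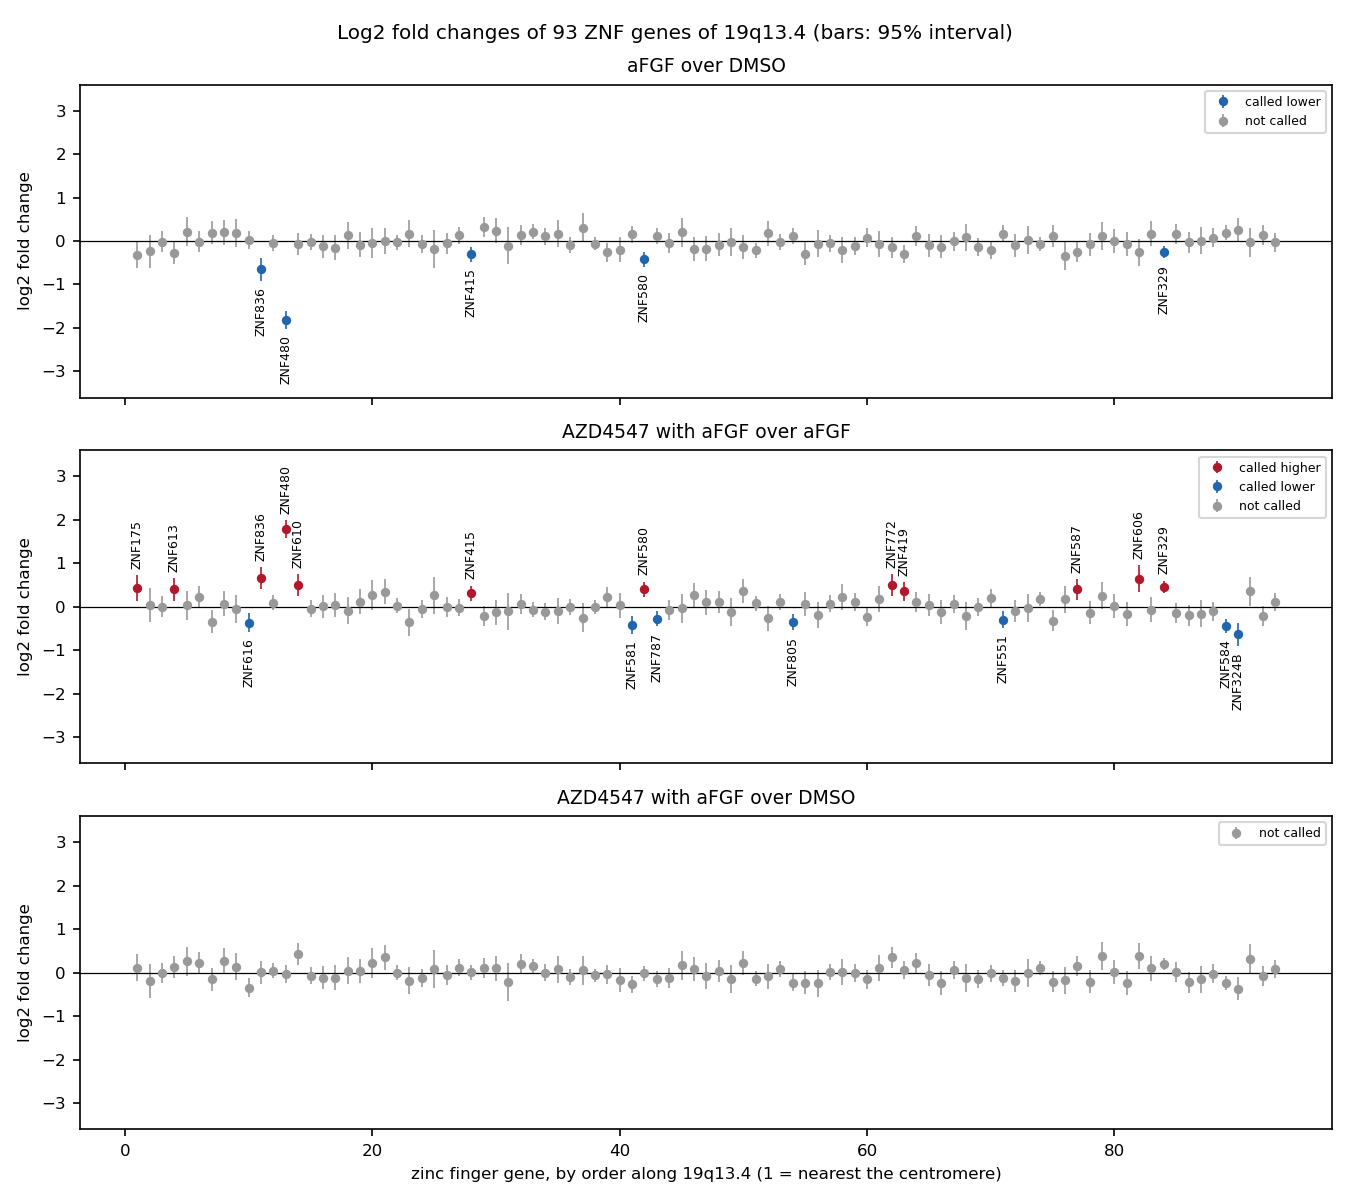
The log2 fold change (vertical axis) of the 93 zinc finger genes is plotted in their order along 19q13.4 (horizontal axis), with 95% intervals, for each comparison. ZNF480 stands alone at -1.82 with aFGF and 1.79 with AZD4547, called genes lie along the whole band, and in the comparison of AZD4547 with DMSO no gene is called.

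RefSeq promoter windows (GRCh38.p14) were matched for 80 of the 93 members. ZNF480 was not matched. The 250 bases before the annotated start are shown for ZNF836 (chr19:52171622-52171871, minus strand) and for the most upstream of the ZNF580 starts (chr19:55640752-55641001, plus strand), since these genes had the next largest falls. Capitals mark matches on either strand to the 9 motifs searched. The motifs of general promoter factors were the GC box, read as GGGCGG, and the CCAAT box, read as its name. Those of growth factor response were the ETS motif (CCGGAAG), the EGR motif (GCGTGGG) and the AP-1 motif (TGANTCA). The others were the YY1 motif (AAGATGG), the E-box (CACGTG), the FOXO motif (GTAAACA) and the cyclic AMP element (TGACGTCA). Matches of the GC box and EGR motifs can overlap each other.

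ZNF836: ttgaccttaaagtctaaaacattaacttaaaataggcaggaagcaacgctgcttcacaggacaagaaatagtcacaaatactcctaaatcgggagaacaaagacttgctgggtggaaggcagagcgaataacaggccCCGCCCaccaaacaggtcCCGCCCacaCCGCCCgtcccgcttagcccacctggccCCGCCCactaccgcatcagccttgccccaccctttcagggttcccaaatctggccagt

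ZNF580: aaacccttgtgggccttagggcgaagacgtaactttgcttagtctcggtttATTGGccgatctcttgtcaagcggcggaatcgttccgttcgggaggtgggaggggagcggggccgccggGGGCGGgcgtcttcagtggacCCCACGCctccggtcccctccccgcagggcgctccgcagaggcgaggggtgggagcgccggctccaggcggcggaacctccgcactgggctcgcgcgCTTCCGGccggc

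The ZNF836 window held 4 matches to the GC box and none to the other motifs. The ZNF580 window held 1 match each to the CCAAT box, the GC box, EGR and ETS, the last starting 12 bases before the start. A match describes the letters of a window and was not tested as a site.

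The second comparison asked what AZD4547 changed in the presence of aFGF. Here 12 members rose and 7 fell, 20.4% of the members, where 25.7% of all genes were called, 15.6% as higher and 10.1% as lower. All 5 members that fell with aFGF were among the 12 that rose with AZD4547. Since both comparisons use the aFGF arrays, a low reading there moves both. At an unadjusted p under 0.05, 16 members were higher and 11 lower, beside 34.5% of all genes. The median log2 fold change was 0.01 for the members and -0.02 for all genes. Groups did not overlap for 56 members, and for 60.6% of all genes.

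ZNF480 rose by a log2 fold change of 1.79 (SE 0.09, limma adjusted p = 1.8e-07), 3.45-fold, and ranked 8 by size among the rises of all genes. It was the only member called at 2-fold or more in this comparison, as it was with aFGF, where such calls were 1.39% and 0.53% of all genes. ZNF836 rose by 0.66, ZNF329 by 0.46, ZNF580 by 0.40 and ZNF415 by 0.31 on the log2 scale, with limma adjusted p-values of 0.0013, 0.00027, 0.0027 and 0.013. Among the brighter members, ZNF580, ZNF415, ZNF419, ZNF329 and ZNF524 had the patterns most like that of ZNF480, with Pearson correlations over the 6 arrays of 0.991, 0.985, 0.954, 0.88 and 0.859. These values describe 6 arrays in 3 groups.

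The other 7 members that rose did not pass the test with aFGF. ZNF606, a KRAB zinc finger gene, read 3.76 and 3.68 in DMSO, 3.65 and 3.27 with aFGF, and 3.96 and 4.26 with AZD4547, so that both AZD4547 arrays lay above the other 4. Its log2 fold change of AZD4547 over aFGF was 0.65 (SE 0.14, limma adjusted p = 0.0045), lost without aFGF replicate 2 and without AZD4547 replicate 2. ZNF610, next to ZNF480 in the band, read 2.46 and 2.48, then 2.43 and 2.37, then 2.92 and 2.89, again highest with AZD4547. Its log2 fold change was 0.50 (SE 0.12, adjusted p = 0.0065), lost without aFGF replicate 2.

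ZNF772 read 3.94 and 3.98 in DMSO, 3.65 and 3.98 with aFGF, and 4.34 and 4.28 with AZD4547. The DMSO and aFGF arrays met, and the AZD4547 arrays lay above both. Its log2 fold change was 0.50 (adjusted p = 0.0062), but 0.09 (adjusted p = 0.72) in the mean over its 3 probe sets, and the call was also lost without _x_at probe sets, without aFGF replicate 1 and without AZD4547 replicate 1. ZNF175 (OTK18), known from macrophages as a factor that restrains HIV, read 4.67 and 4.14 in DMSO, 4.09 and 4.09 with aFGF, and 4.52 and 4.52 with AZD4547. The AZD4547 arrays exceeded the aFGF arrays and lay between the DMSO arrays, and the log2 fold change of 0.43 (adjusted p = 0.041) was lost under 9 of 17 alternatives. These were leaving out any single one of the aFGF or AZD4547 arrays, no intensity trend, quantile normalization, median centring, the mean over probe sets and intensity plus 8.

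ZNF587, whose protein is known to bind HERV-K and SVA elements, read 3.33 and 3.33 in DMSO, 3.17 and 2.99 with aFGF, and 3.49 and 3.48 with AZD4547. The groups did not overlap, with AZD4547 highest. Its log2 fold change was 0.40 (adjusted p = 0.017), lost without aFGF replicate 2 or either AZD4547 array. Of 5 more members that have been linked to retroelements, chosen from background knowledge after values were seen and not as a complete set, none was called. ZNF417, a near-identical copy of ZNF587, and ZNF611, ZNF649, ZNF765 and ZNF808, had log2 fold changes of AZD4547 over aFGF of 0.26, 0.35, 0.00, -0.06 and -0.09. ZNF613 rose by 0.40 and ZNF419, the source of a known minor histocompatibility antigen, by 0.35, with adjusted p-values of 0.028 and 0.018. ZNF419 lost its call without any single one of the aFGF or AZD4547 arrays, and ZNF613 without aFGF replicate 1 or either AZD4547 array.

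The 7 members that fell with AZD4547 had their lowest readings on the AZD4547 arrays, and none of them was called with aFGF. ZNF324B read 3.15 and 3.0 in DMSO, 3.45 and 3.22 with aFGF, and 2.67 and 2.73 with AZD4547. ZNF584 read 4.96 and 4.95, then 5.19 and 5.11, then 4.72 and 4.72, and ZNF581 read 5.52 and 5.35, then 5.69 and 5.49, then 5.12 and 5.22. For ZNF324B and ZNF584 the 3 groups were apart, from high to low in the order aFGF, DMSO, AZD4547, while for ZNF581 the DMSO and aFGF arrays met. The log2 fold changes of AZD4547 over aFGF were -0.63 for ZNF324B, -0.44 for ZNF584 and -0.42 for ZNF581, with limma adjusted p-values of 0.0021, 0.0011 and 0.0042. ZNF616 fell by 0.36, ZNF805 by 0.35, ZNF551 by 0.30 and ZNF787 by 0.27 on the log2 scale, with adjusted p-values of 0.016, 0.0099, 0.024 and 0.029. ZNF581 and ZNF805 lost their calls without aFGF replicate 1 or without AZD4547 replicate 1, and ZNF805 also in the mean over probe sets. ZNF551 lost its call without any single one of these 4 arrays, ZNF616 without either aFGF array or AZD4547 replicate 2, and ZNF787 without either aFGF array or AZD4547 replicate 1. The call of ZNF616 was also lost in the mean over probe sets, and that of ZNF787 with no intensity trend.

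Promoter windows are shown for ZNF606 (chr19:58002821-58003070, minus strand), which had the largest rise with AZD4547 after ZNF480 and ZNF836, and for ZNF324B (chr19:58451372-58451621, plus strand), which had the largest fall. Both were chosen after their values were seen. Capitals mark the same motifs.

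ZNF606: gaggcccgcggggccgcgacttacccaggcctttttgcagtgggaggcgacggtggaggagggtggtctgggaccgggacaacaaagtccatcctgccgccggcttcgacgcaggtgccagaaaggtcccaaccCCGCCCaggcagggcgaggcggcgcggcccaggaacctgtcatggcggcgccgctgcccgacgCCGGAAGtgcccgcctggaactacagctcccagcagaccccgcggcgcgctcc

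ZNF324B: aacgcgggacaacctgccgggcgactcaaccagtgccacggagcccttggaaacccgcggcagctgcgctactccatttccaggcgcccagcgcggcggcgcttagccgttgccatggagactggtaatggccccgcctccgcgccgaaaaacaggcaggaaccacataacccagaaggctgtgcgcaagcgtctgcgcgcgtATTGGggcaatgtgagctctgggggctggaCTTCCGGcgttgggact

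Both windows held an ETS match, starting 53 bases before the start in ZNF606 and 17 bases before it in ZNF324B, though the genes moved in opposite directions. Over all member windows, 31.6% of 98 held the ETS letters. The share was 24.1% for ZNF genes of other bands of chromosome 19, 25% for ZNF genes of other chromosomes, 8.57% for other genes of 19q13.4, 10.9% for windows of all genes tested and 8.52% for all 35116 RefSeq windows. Within the members it was 41.7% of 12 windows of genes higher with AZD4547, 57.1% of 7 windows of genes lower with it, 16.7% of 6 windows of genes lower with aFGF, and 27.8% of 79 windows of genes never called. For the GC box the shares were 61.2% of member windows, 64.1% of those of ZNF genes of other bands of chromosome 19 and 54.7% of those of all genes tested. In the same order they were 43.9%, 46.9% and 32.7% for the CCAAT box, and 8.16%, 4.83% and 3.27% for YY1. They were 7.14%, 11% and 7.59% for EGR, 6.12%, 2.76% and 7.34% for the E-box, and 1.02%, 0.69% and 2.41% for FOXO. For AP-1 they were 6.12%, 4.83% and 5.32%, and for the cyclic AMP element 2.04%, 2.76% and 2.02%. These shares have no test, and windows of duplicated genes share letters by descent.

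**Figure D2:**
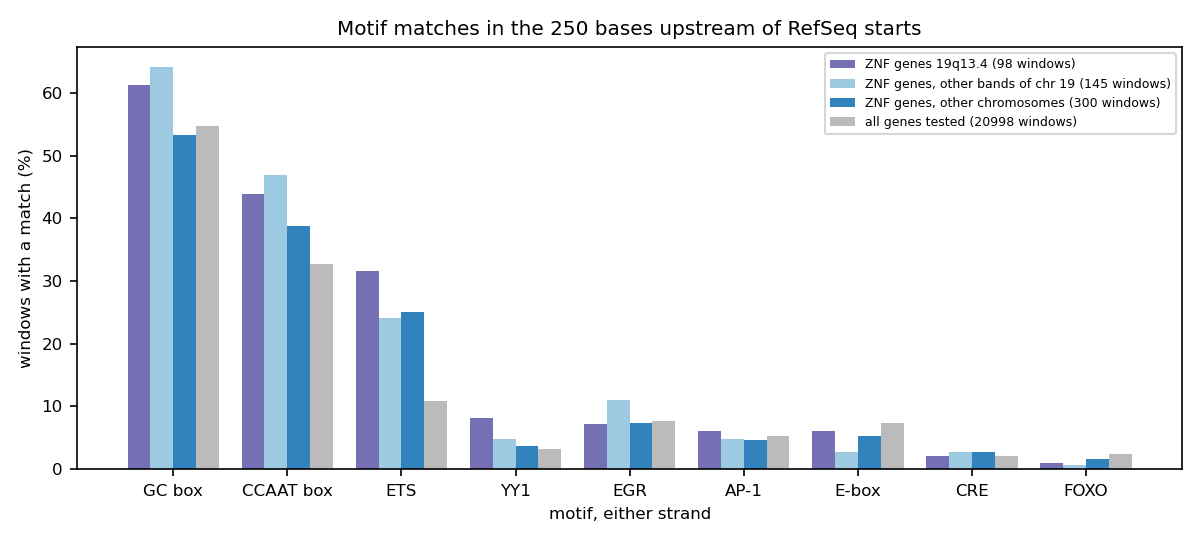
Bars give the percentage of 250-base upstream windows (vertical axis) that hold each motif on either strand (horizontal axis), for the members, other ZNF genes and all genes tested. The ETS bar stands at 31.6% for the members and 10.9% for all genes tested.

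The third comparison set AZD4547 with aFGF against DMSO. No member was called in the limma fit, where 4.68% of all genes were, 2.28% as higher and 2.41% as lower. At an unadjusted p under 0.05 there were 11 members, 6 higher and 5 lower, beside 18.4% of all genes. The groups did not overlap for 39 members and for 44.8% of all genes. No member reached 2-fold, where 0.0368% of all genes were called at that size. The log2 fold changes ran from -0.37 to 0.44. The smallest adjusted p was 0.055, that of ZNF610 at 0.44, followed by 0.073 for ZNF616 at -0.34. For ZNF480 the log2 fold change was -0.03 with a 95% interval from -0.23 to 0.18, and for ZNF836 it was 0.00 with an interval from -0.25 to 0.26. For 74 of the 93 members, and for 15729 of all 19040 genes, the interval stayed within 0.5 of 0 in either direction. By p under 0.05 in the authors' deposited table, this comparison had 11 members, 5 with a ratio above 1 and 6 below, beside 10.1% of all genes, 4.88% above and 5.16% below. The authors' deposited table gave 15 such members for aFGF over DMSO, 3 above 1 and 12 below, beside 16.1% of all genes, 6.56% above and 9.51% below.

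The remaining 74 members were called in no comparison. Their log2 fold changes lay between -0.35 and 0.32 with aFGF, between -0.36 and 0.36 for AZD4547 over aFGF, and between -0.25 and 0.37 for AZD4547 over DMSO. They included ZNF331, an imprinted gene, with -0.09 and -0.01 in the first pair of comparisons, and ZNF350 (ZBRK1), a partner of BRCA1, with 0.22 and 0.04. The SCAN domain gene ZNF444 had -0.04 and -0.08. The 95% interval stayed within 1 of 0 for 92 of the 93 members in each of the first pair of comparisons, with ZNF480 the exception. It stayed within 0.5 for 73 and 62 members. Of all 19040 genes, 18819 and 18460 stayed within 1, and 14644 and 12849 within 0.5.

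Members called in a comparison were spread over the bands. With AZD4547, 4 rose and 1 fell in 19q13.41, 2 rose and 1 fell in 19q13.42, 4 rose and 5 fell in 19q13.43, and 2 rose among members with no finer band. With AZD4547 over aFGF 20.4% of the members and 25.7% of all genes were called, so some neighbours would both be called in any order. Of 92 adjacent pairs of members along the chromosome, 6 had both genes called with AZD4547, a number that was not tested. These moved the same way in 3 pairs (ZNF480 with ZNF610, ZNF772 with ZNF419, ZNF584 with ZNF324B) and opposite ways in 3 (ZNF616 with ZNF836, ZNF581 with ZNF580, ZNF580 with ZNF787). With aFGF no adjacent pair was called.

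Brighter genes were called more often. Among the 49 members above the median of all genes, 8.16% were called with aFGF and 28.6% with AZD4547, beside 28.5% and 45.7% of all genes above it. The median log2 intensity was 4.35 for these members and 5.68 for all genes above the median, so these sets differed in brightness. Among the 44 dimmer members, 1 was called with aFGF (2.27%) and 5 with AZD4547 (11.4%). Of all 19040 genes, 2979 were called with aFGF and 4894 with AZD4547. The 9520 brighter genes held 2717 and 4355 of these calls, and dimmer genes held the rest. With aFGF, 8.7% of 138 ZNF genes on other bands of chromosome 19, 14.6% of 274 ZNF genes of other chromosomes and 6.15% of 130 other genes of 19q13.4 were called. With AZD4547 over aFGF, 20.3%, 29.2% and 12.3% of these sets were called. The split by direction was 12 higher to 7 lower for the members, 25 to 3 for ZNF genes elsewhere on chromosome 19 and 52 to 28 for those of other chromosomes. No difference between these sets was tested.

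**Figure D3:**
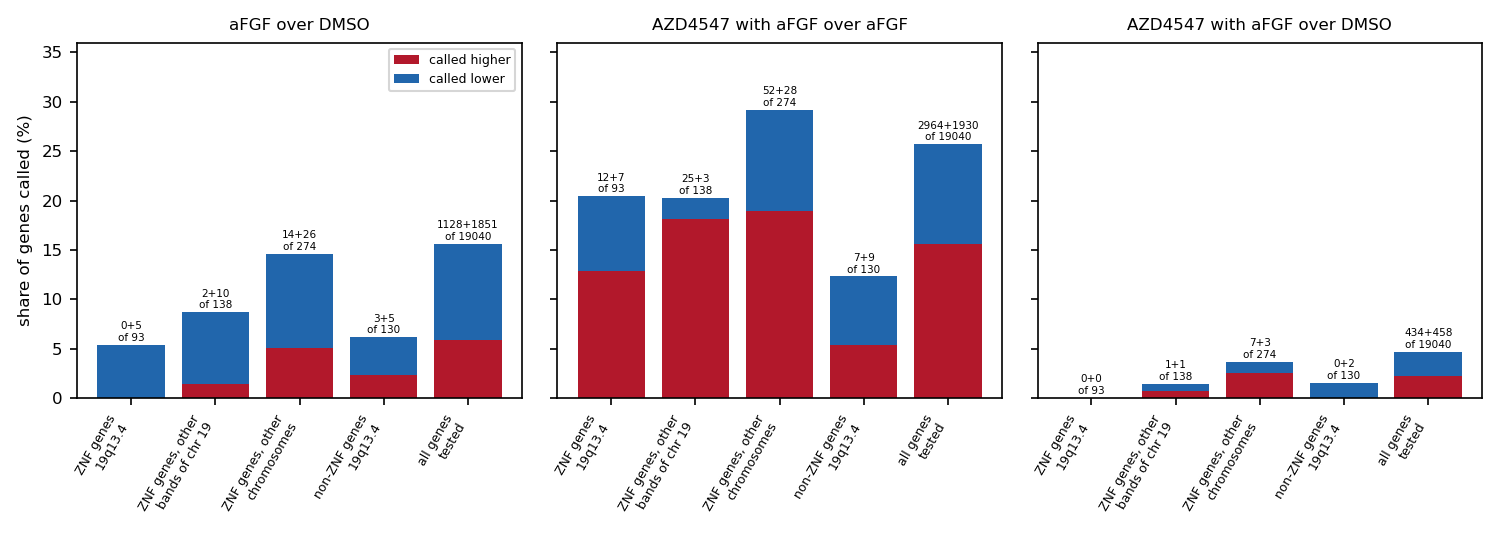
Stacked bars give the percentage of each gene set (vertical axis) called higher or lower in each comparison, with counts above the bars. The members reach 5.38% with aFGF and 20.4% with AZD4547, below the 15.6% and 25.7% of all genes.

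The 93 members had 207 probe sets, and 64 members had more than 1. When every probe set was tested, the 4 of ZNF480 were all lower with aFGF, by log2 fold changes of -1.82, -1.37, -1.51 and -0.74, and all higher with AZD4547, by 1.79, 1.55, 1.65 and 1.02. The 3 of ZNF836 were also all lower, by -0.63, -0.62 and -0.65, and all higher, by 0.50, 0.66 and 0.66. Both probe sets of ZNF606 rose with AZD4547. Other calls rested on fewer readings: 2 of 3 probe sets for ZNF584, 2 of 5 for ZNF587, 1 of 2 for ZNF324B and ZNF610, 1 of 3 for ZNF772, ZNF419, ZNF551 and ZNF616, and 1 of 4 for ZNF175 and ZNF805. No member had called probe sets in opposite directions. ZNF547 was called only in its dimmer probe set, which rose by 0.57 with aFGF and fell by 0.52 with AZD4547. ZNF578, ZNF586, ZNF71 and ZNF814 were each called with AZD4547 in a dimmer probe set only. ZNF836, ZNF329, ZNF772 and ZNF587 were represented by probe sets ending in _x_at, whose probes can match other transcripts. ZNF175, ZNF613, ZNF616 and ZNF551 were represented by probe sets ending in _s_at, whose probes can match several transcripts. Related zinc finger genes may therefore share the readings of both kinds of probe set.

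**Figure D4:**
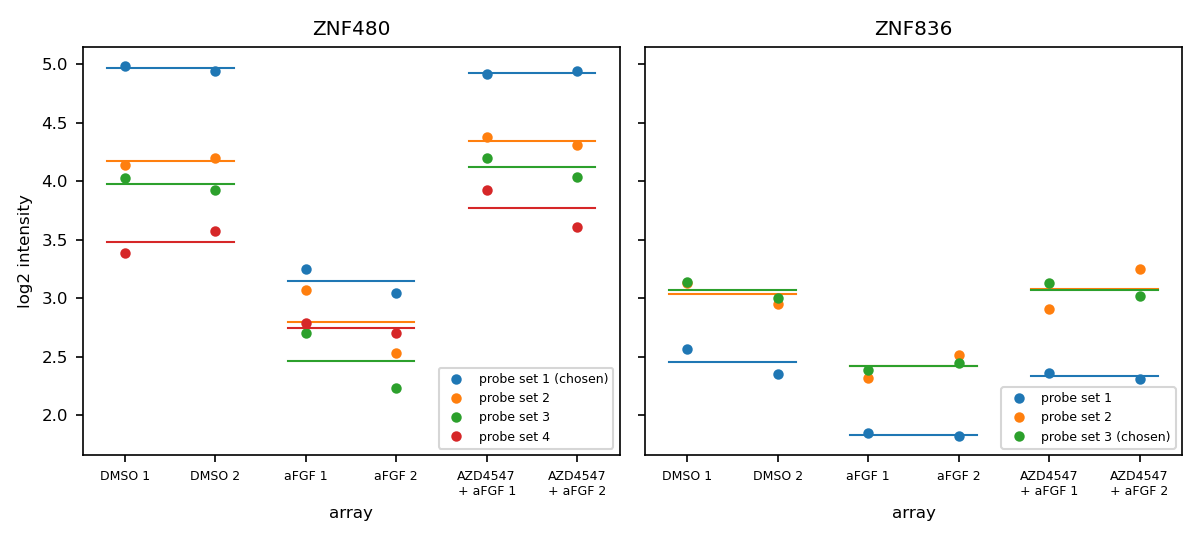
Points give the log2 intensity (vertical axis) of each probe set of ZNF480 and ZNF836 on each of the 6 arrays (horizontal axis), and lines give group means. All 7 probe sets have their lowest readings on the aFGF arrays.

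Genes for proteins that KRAB zinc fingers act through were examined from a list of 36, 35 of which lay above the median of every array. The list, called corepressor genes here, also holds the zinc finger genes ZNF274 and CTCF. These are not such corepressors, and neither was called in any comparison. With aFGF, 10 fell (27.8%) and none rose, where 17.6% of all genes brighter than the gene median fell and 10.9% rose. The median log2 fold change was -0.08 for the list and -0.04 for those brighter genes. The largest falls were those of the NuRD helicase CHD3 (-0.53), the histone methyltransferase EHMT2 (-0.53), the histone chaperone RBBP4 (-0.47), the HP1 gene CBX1 (-0.44), the DNA methyltransferase DNMT3B (-0.43) and the HP1 gene CBX5 (-0.40). TRIM28, itself in 19q13.4, read 7.90 and 7.97 in DMSO, 7.69 and 7.78 with aFGF and 7.88 and 7.85 with AZD4547. The aFGF arrays were the lowest, and the log2 fold change was -0.20 (SE 0.06, limma adjusted p = 0.029). SETDB1, at -0.23, did not pass (adjusted p = 0.11). With AZD4547 over aFGF 10 corepressor genes rose (27.8%) and none fell, where 27.7% of the brighter genes rose and 18% fell. The share that rose was thus close to that of the brighter genes, which were not matched to the list in brightness. The median was 0.12 for the list and 0.04 for the brighter genes. The rises were led by CHD3 (0.71), ATF7IP (0.71), EHMT2 (0.63), CBX5 (0.46), PIAS1 (0.45) and RBBP4 (0.44). TRIM28 was not among them, at 0.13 (adjusted p = 0.12). Against DMSO, ATF7IP was higher with AZD4547 (0.40) and DNMT3B lower (-0.35).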

How the data were processed

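Per the labels, 6 Affymetrix arrays of AN3-CA RNA were analysed, 2 in each of 3 groups, and the submitters' processing notes name RMA, with no version. The deposited intensity values run from 0.75 to 6344.2, which is a linear scale. The sources used here name neither the array type nor the step back from log2. The deposited table also holds ratio and p-value columns by the authors. The ratio is that of mean intensities, and no source used here names the test behind the p-value.

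Intensities were converted to log2 without a pseudocount. Of 49293 probe sets, 47340 carried a single symbol. Symbols were updated through Entrez identifiers to RefSeq, and each of 19040 genes was represented by its brightest probe set. A limma 3.58.1 model of the 3 group means (R 4.3.3, eBayes with an intensity trend) used all 6 arrays, and p-values, two-sided, were adjusted by Benjamini-Hochberg over all genes. A call is an adjusted p under 0.05. The fit was also run on simulated data, with independent noise and few changed genes, as a check of the code. That run does not measure the error rate in these arrays. No filter on dim genes was applied, since no detection calls are in the table. With 2 arrays a group, their number limits the precision: the median standard error of a member's log2 fold change was 0.117. The members and gene lists were chosen with earlier results of these data known.

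Named members were, per comparison, the 10 largest rises and falls among called members whose groups do not overlap, the 5 brightest, and up to 6 called corepressor genes. The rest of the called members are named to account for all, and other names were chosen after their values were seen. The alternatives were no intensity trend, a replicate block, dim genes left out, quantile normalization again, median centring, means over probe sets, no _x_at probe sets, intensity plus 8, the other deposited value table, array weights, and each array left out. Testing all probe sets was added after seeing the data. Protein sequences were not analysed here. Same-numbered replicates were not treated as paired.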

Additional observations from a re-analysis of the deposited data

How the results depend on the processing

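Directions of all 24 called changes of single members held under every alternative that gave a value, and 8 calls were never lost: both of ZNF480 and ZNF836, and those of ZNF329, ZNF580, ZNF584 and ZNF324B with AZD4547. The other 16 were lost at least once. With aFGF, 5 members were called, but 3 with no intensity trend, and 2 to 9 when single arrays were left out: 9 without DMSO replicate 2, 3 without aFGF replicate 1 and 2 without aFGF replicate 2. Leaving dim genes out gave 2 higher and 5 lower of 49 members, and quantile normalization or median centring 1 higher and 5 lower, where the split had been 0 to 5. With AZD4547 over aFGF, 19 members became 9 to 23: 10 without aFGF replicate 1, 10 without aFGF replicate 2, 9 without AZD4547 replicate 1 and 11 without AZD4547 replicate 2. Leaving dim genes out gave 8 higher and 8 lower, where the split had been 12 to 7. Against DMSO the count of 0 became 2, both lower, with dim genes left out, 1, higher, with intensity plus 8, and 0 to 2 without single arrays, the 2 without DMSO replicate 2. The cause was not tested. Shares of all genes called under these alternatives are not given here, so a shift of the members cannot be told from one of all genes. With 2 arrays a group, small changes of dim members could not be resolved.

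The labels do not state whether same-numbered cultures were paired. Deviations of same-numbered arrays correlated at 0.06, 0.14 and -0.06 across genes, which cannot settle it. With the replicate number as a block, 5 members were called with aFGF, 22 with AZD4547 over aFGF and 0 against DMSO.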
